A study of Mus musculus with 45 samples.

Results

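The genes described here encode 8 laminin chains and the laminin-binding linker nidogen 1: Lama2, Lama3, Lama4, Lama5, Lamb1, Lamb2, Lamb3, Lamc1 and Nid1. They were taken by gene symbol from a count table of 24422 genes, and all 9 were found in it. All 9 passed the filter on low counts, which asked for 1 CPM (counts relative to the library's total) in no fewer than 5 samples of a comparison, in all 6 comparisons. Lamb3 passed it in the comparisons of the layers only through endometrium, where it was the higher, so its call there was favoured by the filter. They were taken as a family, by what their proteins do, with earlier results of these data known.

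Uterine RNA was measured in 7 wildtype (WT) and 7 Plag1 knockout (Plag1KO, or KO) females of the outbred CD-1 stock. KO mice carry a lacZ knock-in at the Plag1 locus that leaves none of the Plag1 coding frame. All mice of both genotypes, controls included, were sexually mature, received 5 IU of pregnant mare serum and 2 days later 5 IU of human chorionic gonadotropin, and were killed on the following day. Each mouse gave 3 samples: intact horn (uterus), the lining scraped off after a horn was cut open (endometrium), and what remained of the muscular wall (myometrium). This makes 6 groups of 7 mice. Expression was read by STRT, a protocol that counts the 5′ ends of polyadenylated transcripts with molecular identifiers. Because 5′ counts do not grow with transcript length and each gene's capture is unknown, CPM values were compared within a gene and not between genes. All tissue was bulk, so fewer cells of a type and less RNA per cell cannot be told apart.

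The basement membrane is a thin sheet of matrix under epithelia and around muscle fibres, vessels and nerves. Its laminins are trimers of an alpha, a beta and a gamma chain that are secreted, polymerise at the cell surface and bind integrins and dystroglycan through the alpha chain, and nidogen links their gamma chain to the collagen IV network. The makeup differs by cell type. Lama3 and Lamb3 belong to a trimer that anchors epithelia, Lama5 is typical of epithelia and mature vessels, Lama2 surrounds muscle and nerve, Lama4 lies around vessels, smooth muscle and fat, Lamb2 replaces Lamb1 in many mature vessel and muscle membranes, and Lamc1 is the gamma chain of most trimers.

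Promoter sequences are shown for 4 of the genes, since STRT counts transcripts from their 5′ ends and since the 3 beta chains are among the genes compared between layers. RefSeq windows, from 250 bases before to 50 bases after the annotated start on build GRCm38.p6, matched 6 of the 9 genes. Lama3, Lama4 and Lamc1 had no window, so their promoters were not searched for any motif. Matches to 5 motifs are in capitals, on either strand: the GC box GGGCGG, the E-box CANNTG, the AP-1 site TGANTCA, the TATA box TATAAA and the CArG box that serum response factor binds in smooth muscle genes. The matches do not overlap each other in these 4 windows. They are matches of letters, not sites shown to be used.
Lamb1, chr12:31265043-31265342, plus strand: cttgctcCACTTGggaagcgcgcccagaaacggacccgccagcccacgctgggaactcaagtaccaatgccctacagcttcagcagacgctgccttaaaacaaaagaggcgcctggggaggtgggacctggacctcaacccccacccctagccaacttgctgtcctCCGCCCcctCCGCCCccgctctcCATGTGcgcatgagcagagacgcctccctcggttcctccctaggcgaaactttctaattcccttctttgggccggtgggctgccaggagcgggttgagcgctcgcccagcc
Lamb2, chr9:108479612-108479911, plus strand: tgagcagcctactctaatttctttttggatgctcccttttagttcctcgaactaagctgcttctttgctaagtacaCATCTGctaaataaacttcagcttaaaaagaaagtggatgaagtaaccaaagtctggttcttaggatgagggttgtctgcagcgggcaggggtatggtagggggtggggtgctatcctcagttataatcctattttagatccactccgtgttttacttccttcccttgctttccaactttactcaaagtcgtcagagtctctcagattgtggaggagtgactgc
Lamb3, chr1:193301744-193302043, plus strand: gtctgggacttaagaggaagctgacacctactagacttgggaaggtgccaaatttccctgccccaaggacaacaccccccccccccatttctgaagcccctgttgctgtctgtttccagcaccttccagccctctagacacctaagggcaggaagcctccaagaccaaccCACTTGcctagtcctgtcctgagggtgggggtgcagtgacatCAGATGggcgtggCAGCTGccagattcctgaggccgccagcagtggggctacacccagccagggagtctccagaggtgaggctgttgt
Lama2, chr10:27616893-27617192, minus strand: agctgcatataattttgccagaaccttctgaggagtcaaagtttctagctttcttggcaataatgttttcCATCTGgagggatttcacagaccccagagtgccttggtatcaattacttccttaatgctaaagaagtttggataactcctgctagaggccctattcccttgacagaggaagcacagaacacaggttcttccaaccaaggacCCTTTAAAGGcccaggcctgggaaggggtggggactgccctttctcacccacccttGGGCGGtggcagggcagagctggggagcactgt

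The Lamb1 window held 2 GC boxes, at 84 and 75 bases before the start, and 2 E-boxes, with 63.7% G and C. The Lamb2 window held a single E-box and no GC box, with 44.0% G and C, against a median of 52.7% over all windows. The Lamb3 window shown held 3 E-boxes, and the window of a second annotated Lamb3 start had 2. GC boxes are in 35.7% of all 32851 windows and E-boxes in 72.3%. The Lama2 window was the only one of the 7 windows of these genes with a CArG box, 39 bases before the start, a motif found in 1.63% of all windows. The Lama5 window held 4 GC boxes, the Nid1 window 1, and none of the 7 windows held the AP-1 site (7.81% of all windows) or the TATA box (13.6%).

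Gene totals ran from 256298 to 1222627 counts per library over 45 libraries, and repeat libraries of a mouse were summed to give 42 samples. A floor of 3 counts corresponded to 1.24 to 9.81 CPM by depth, which covers counting error only. Plag1 itself had 0 or 1 count per sample, in 2 of 21 WT and 5 of 21 KO samples, so its counts do not check the genotype labels, also because the 5′ end that STRT reads lies outside the replaced frame. The 4 epithelial markers Krt8, Krt18, Epcam and Cdh1 all rose in endometrium over myometrium in each genotype, and the 4 smooth muscle markers Acta2, Des, Myh11 and Cnn1 were all higher in myometrium. Their sums showed 3 samples that held much of the other layer: smooth muscle markers summed to 7155 CPM in endometrium of WT mouse 3 (group median 1165) and 8120 CPM in that of KO mouse 13 (group median 486), and epithelial markers to 605 CPM in myometrium of WT mouse 5 (group median 103).

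Between endometrium and myometrium, the layers differed most in 2 chains that went in opposite directions. Lamb3, the beta chain of the epithelial anchoring trimer, was higher in endometrium, and Lama4, the vessel and smooth muscle alpha chain, was higher in myometrium, both of them in each genotype. The Lamb3 call was favoured by the filter on low counts, which Lamb3 passed only through endometrium. Lamc1, the common gamma chain, was higher in myometrium in each genotype, and Lamb2 in WT. In WT, 1 of the 9 genes rose in endometrium and 3 rose in myometrium at an adjusted p under 0.05 (edgeR quasi-likelihood test, Benjamini-Hochberg adjustment over all genes tested), where 6.81% and 6.39% of the 13227 genes tested did, 13.2% in either direction. In KO, 1 rose in endometrium and 2 in myometrium, where 10.6% and 8.71% of 12969 genes did, 19.3% in either direction. The median log2 difference, endometrium minus myometrium, over the 9 genes was -0.42 in WT and -0.45 in KO, beside 0.01 and 0.08 over all genes tested. Without WT mouse 3, 5 or KO mouse 13, the counts of called genes were 3, 4 and 3, of which the rise in endometrium was 1 each time.

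**Figure D1:**
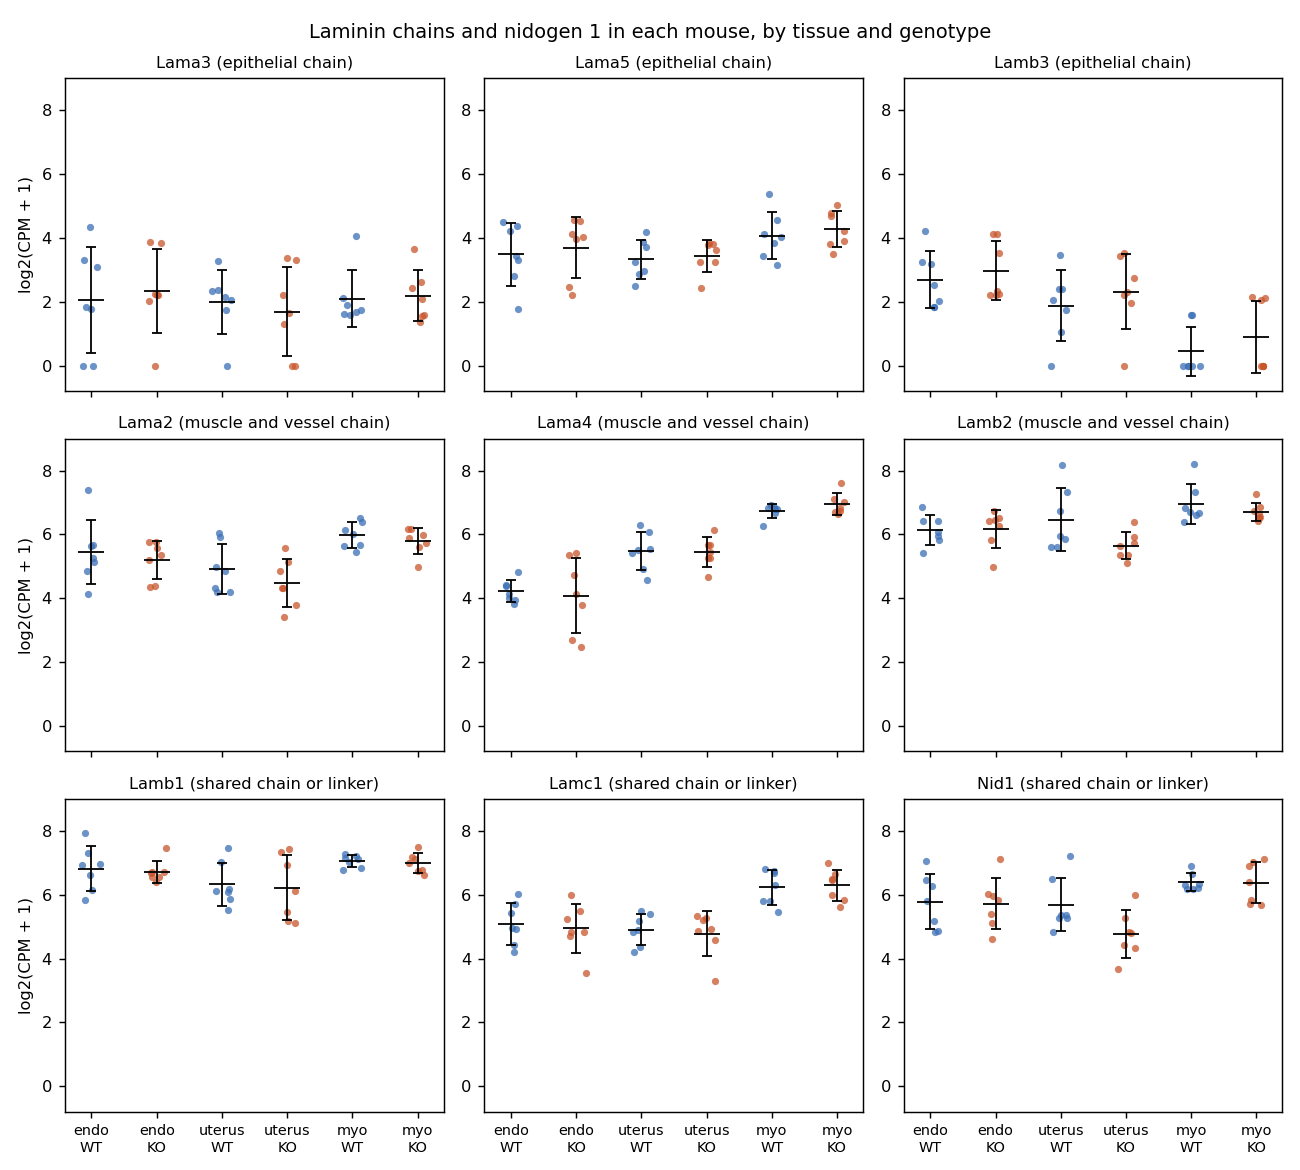
Level of each of the 9 genes as log2(CPM + 1), vertical axis, in the 6 tissue and genotype groups, horizontal axis (endo, endometrium; myo, myometrium). Each point is a mouse, blue WT and orange KO, and black bars are the mean ± SD of 7 mice. Lama4 climbs from endometrium through uterus to myometrium without overlap of the layers, Lamb3 falls to or near 0 in myometrium, and the Lamb1 groups overlap.

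Lamb3 (chr1:195128151-195170072, mm9, plus strand) had the largest layer difference of the 9 genes in WT and, after Lama4, the second largest in KO. In endometrium its lowest, median and highest levels were 2.55, 4.80 and 17.6 CPM in WT and 3.62, 4.01 and 16.6 CPM in KO. In myometrium they were 0, 0 and 1.97 CPM in WT and 0, 0 and 3.46 CPM in KO. Every endometrium sample thus lay above every myometrium sample of its genotype, though in KO the gap from 3.46 to 3.62 CPM was small. Both of these KO values were from mouse 14, with 2 counts in each layer. Such a lack of overlap, with endometrium higher, occurred in 1.16% of the genes tested in WT and 2.82% in KO. Since Lamb3 passed the filter only through endometrium, the filter favoured this pattern, and these shares do not measure how unusual Lamb3 was.

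These levels rest on few molecules. WT myometrium held 2 Lamb3 counts over 7 mice and KO myometrium 6, no sample of either above 3, against 28 and 53 counts in endometrium. The ratio of the pooled counts per total was 14.5 in WT, with a 95% interval of 3.66 to 126, and 5.09 in KO, with an interval of 2.19 to 14.5, both covering counting error only. The fitted log2 difference was 3.34 ± 0.80 (SE, n = 7 mice per layer, adjusted p = 0.00511) in WT and 2.35 ± 0.68 (adjusted p = 0.0168) in KO, in edgeR. By CPM, endometrium was the higher in all 14 mice. For KO mouse 14 this order came from library scaling alone, with 2 counts in each layer, and WT mouse 8 had 2 counts against 1. In KO the adjusted p was 0.0516, 0.0556 and 0.0774 without mouse 2, 6 or 11, with differences of 2.31, 2.08 and 1.82.

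Lama3, the alpha chain that pairs with Lamb3 in the anchoring trimer, was not called between layers. Its lowest, median and highest levels were 0, 2.61 and 19.3 CPM in WT endometrium and 1.97, 2.37 and 15.8 CPM in WT myometrium, and 0, 3.64 and 13.7 CPM against 1.56, 3.27 and 11.6 CPM in KO. The groups overlapped over most of their ranges, and most samples held 3 counts or fewer (5 and 6 of 7 in the WT layers, 4 and 6 of 7 in the KO layers). The log2 difference was 0.56 ± 0.67 (SE, adjusted p = 0.684, edgeR) in WT and 0.47 ± 0.61 (adjusted p = 0.66) in KO. Pooled counts gave ratios, endometrium over myometrium, of 1.73 (95% interval 0.933 to 3.30) in WT and 1.36 (0.752 to 2.55) in KO. Both intervals cover counting error only and include no difference, a higher and a lower level in endometrium. Endometrium was the higher in 3 of 7 WT and 5 of 7 KO mice, and mouse 10 alone gave 16 of the 30 counts of WT endometrium. The genes that overlap Lama3 in the annotation lie on the opposite strand, and whether counting used strand was not given.

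Lama5 (chr2:179911078-179960564, minus strand), the alpha chain of epithelial and mature vessel laminins, was not called between layers. It had lowest, median and highest levels of 2.40, 9.75 and 21.7 CPM in WT endometrium and 7.89, 15.3 and 40.3 CPM in WT myometrium. In KO these were 3.64, 15.2 and 22.8 CPM against 10.3, 17.6 and 31.5 CPM. The layers overlapped, with myometrium higher in 5 of 7 mice of each genotype. The log2 differences of -0.56 ± 0.43 (SE, adjusted p = 0.459) and -0.39 ± 0.37 (adjusted p = 0.518) did not pass the edgeR test, although the 4 epithelial markers rose in endometrium by 2.36 to 2.79 in WT and 2.68 to 3.18 in KO on the log2 scale.

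**Figure D2:**
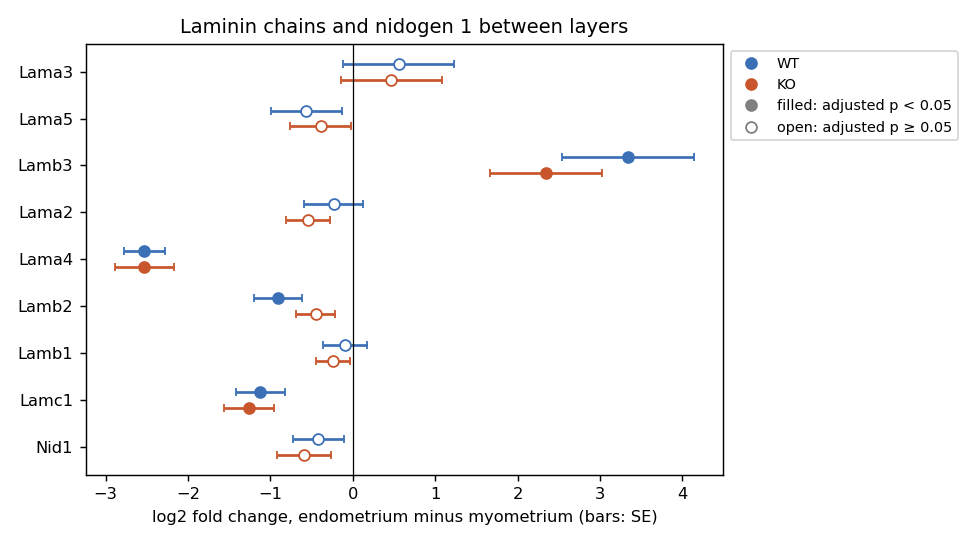
Difference between layers for the 9 genes: log2 fold change, endometrium minus myometrium, on the horizontal axis with bars of 1 SE, for WT (blue) and KO (orange), 7 mice per layer. Filled points passed an adjusted p of 0.05. Lamb3 lies far to the right at 3.34 and 2.35, Lama4 far to the left at -2.53 in each genotype, and Lama3, Lama5, Lama2, Lamb1 and Nid1 are open in each.

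Lama4 (chr10:38685321-38829994, plus strand) separated the layers most cleanly. In WT endometrium its levels were 13.0, 16.6 and 27.4 CPM (lowest, median, highest), and in WT myometrium 76.0, 110 and 121 CPM. In KO they were 4.55, 16.6 and 41.7 CPM against 99.6, 113 and 195 CPM. The layers did not overlap in either genotype, which held with myometrium higher for 1.91% of genes in WT and 2.63% in KO, and myometrium was the higher in all 14 mice. The 2 highest KO endometrium samples were mouse 13, at 41.7 CPM, and mouse 14, at 39.9 CPM; the smooth muscle markers of these samples summed to 8120 and 922 CPM, the highest and second highest of their group, and the part of muscle tissue in these Lama4 levels was not tested.

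The log2 difference of Lama4 was -2.53 ± 0.25 (SE, adjusted p = 7.66e-07, edgeR) in WT, where it ranked 2 by p-value among all genes tested, and -2.53 ± 0.36 (adjusted p = 2.47e-05) in KO. The call was kept in all 15 alternatives run in each genotype. The interaction of genotype and layer was 0.01 ± 0.34 for Lama4.

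Lama2 (chr10:26701094-27336748, minus strand), the alpha chain of muscle and nerve laminins whose loss causes muscular dystrophy, was not called between layers, unlike Lama4; the difference between these genes was not tested. It had 16.6, 37.4 and 165 CPM in WT endometrium and 43.2, 63.0 and 91.3 CPM in WT myometrium, and 19.4, 40.1 and 53.5 CPM against 30.8, 58.8 and 71.0 CPM in KO. The highest endometrium sample, WT mouse 3 at 165 CPM, was also the WT endometrium sample with the highest smooth muscle marker sum, 7155 CPM, and its own myometrium held 50.2 CPM of Lama2. The part of muscle tissue in this value was not tested. Myometrium was higher in 4 of 7 WT and 6 of 7 KO mice. The log2 differences of -0.23 ± 0.36 (SE, adjusted p = 0.76) and -0.54 ± 0.27 (adjusted p = 0.174) did not pass the edgeR test.

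Lamb2 (chr9:108382193-108392861, plus strand), the beta chain of mature vessel and muscle laminins, had 42.1, 67.2 and 115 CPM in WT endometrium and 83.0, 104 and 297 CPM in WT myometrium. In KO it had 30.3, 85.5 and 106 CPM against 84.8, 99.1 and 152 CPM. Myometrium was the higher in 6 of 7 WT and 7 of 7 KO mice, but the groups overlapped. The log2 difference was -0.90 ± 0.29 (SE, adjusted p = 0.0372, edgeR) in WT and -0.45 ± 0.24 (adjusted p = 0.206) in KO, and the interaction of 0.46 ± 0.38 (adjusted p = 0.993) does not show that the genotypes differed. The WT call lay close to the threshold and was lost when mouse 3, 7, 8, 10 or 12 was left out. The adjusted p was 0.158 without mouse 3, whose myometrium held 297 CPM (difference -0.64). It was 0.0825 without mouse 7, 0.0884 without mouse 8, 0.0839 without mouse 10 and 0.0585 without mouse 12.

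Of the chains shared by many trimers, Lamc1 was called between layers and Lamb1 was not. Lamc1 (chr1:155066052-155179916, minus strand) had 17.6, 30.0 and 63.7 CPM in WT endometrium and 43.4, 78.0 and 112 CPM in WT myometrium, and 10.6, 27.7 and 63.4 CPM against 48.4, 88.2 and 126 CPM in KO. It was higher in myometrium in all 14 mice. The log2 difference was -1.12 ± 0.30 (SE, adjusted p = 0.0126, edgeR) in WT and -1.26 ± 0.30 (adjusted p = 0.00419) in KO, with an adjusted p of 0.0628 in WT without mouse 7 (difference -0.99).

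Lamb1 (chr12:31950099-32014509, plus strand), the common beta chain, was not called between layers. It had 56.2, 121 and 244 CPM in WT endometrium and 108, 138 and 156 CPM in WT myometrium, and 83.4, 102 and 176 CPM against 98.0, 126 and 180 CPM in KO. The samples of endometrium spanned the whole range of myometrium in WT. The log2 differences of -0.10 ± 0.27 (SE, adjusted p = 0.873) and -0.24 ± 0.21 (adjusted p = 0.474) did not pass the edgeR test.

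Nid1 (chr13:13529869-13604542, plus strand), the linker, had 27.6, 54.6 and 133 CPM in WT endometrium and 71.4, 78.9 and 117 CPM in WT myometrium, and 23.5, 55.8 and 138 CPM against 49.9, 84.0 and 139 CPM in KO. Its log2 differences were -0.42 ± 0.31 (SE, adjusted p = 0.436, edgeR) in WT and -0.59 ± 0.33 (adjusted p = 0.231) in KO. In KO, myometrium was higher in 6 of 7 mice, and with the mouse as a block, which pairs the layers of an animal, the difference of -0.69 passed (adjusted p = 0.0337). The exception was KO mouse 9, with 138 CPM in endometrium and 55.6 CPM in myometrium, and without it the difference was -1.05 (adjusted p = 0.0211).

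All layer differences above were scaled by gene counts. With library sizes scaled by the ERCC spike-ins instead, the WT median over all genes became 0.21 in place of 0.01 and the KO median 0.58 in place of 0.08, and the called genes, 901 higher and 845 lower in endometrium of WT, became 953 and 464. In KO the 1378 higher and 1130 lower became 2630 and 419. Lama4 (-2.34 and -2.03) and Lamb3 (3.42 and 2.85) kept their calls in each genotype under this scaling. Lamc1 (-0.98 in WT, -0.82 in KO) and Lamb2 in WT (-0.77) kept their direction but not their calls, with adjusted p-values of 0.0834, 0.0814 and 0.18.

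The change in alpha chain was also seen in the share that each held of the 4 alpha chains' counts, which is a description with no test and rests on 21 to 260 such counts per sample. Since capture differs between genes, the shares show how the makeup moved between tissues, not how much protein of each chain there was. Lama4 held 22.6% ± 6.1 (SD, n = 7) of alpha chain counts in WT endometrium, 49.8% ± 12.7 in WT uterus and 55.7% ± 6.1 in WT myometrium. In KO it held 24.5% ± 12.2, 54.4% ± 9.3 and 61.0% ± 6.8. The ranges of the layers did not meet, at 12.7% to 32.5% against 47.4% to 64.7% in WT and 7.06% to 38.9% against 53.8% to 71.5% in KO.

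Lama2 took most of the other share. It held 55.3% ± 19.3 in WT endometrium and 33.0% ± 5.7 in WT myometrium, and 49.9% ± 13.0 and 27.4% ± 4.5 in KO. A share also depends on the other chains. The median Lama2 level was not higher in endometrium, at 37.4 against 63.0 CPM in myometrium of WT and 40.1 against 58.8 CPM in KO. Lama5 held 14.6% and 18.3% of alpha chain counts in WT and KO endometrium and 9.0% and 9.6% in myometrium. Lama3 was the smallest share in each group, from 7.5% in WT endometrium down to 2.0% in KO myometrium.

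**Figure D3:**
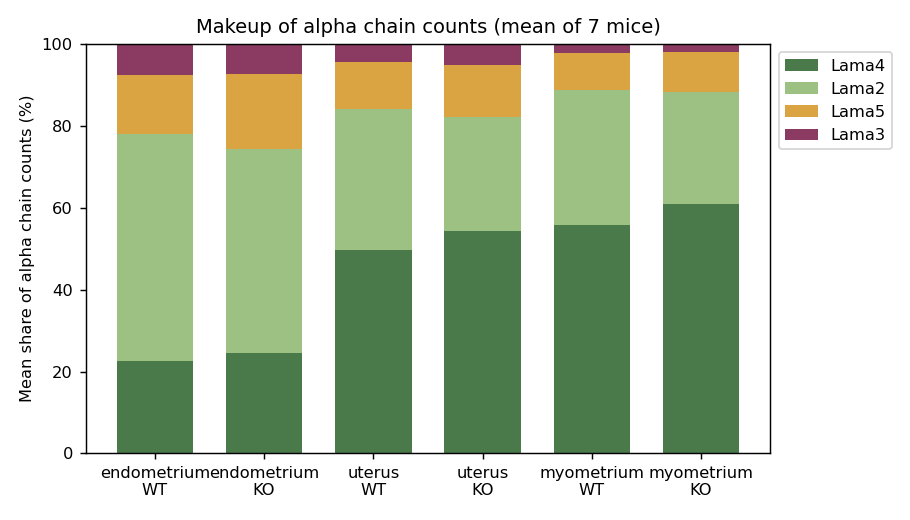
Mean share, in percent, of Lama4, Lama2, Lama5 and Lama3 in the counts of the 4 alpha chains, vertical axis, in the 6 groups, horizontal axis, each bar the mean of 7 mice. Lama2 is the largest share in endometrium (55.3% in WT) and Lama4 in uterus and myometrium (49.8% and 55.7% in WT), with KO bars of the same order.

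In whole uterus, where both layers are present, Lama4 lay between the layers in most mice, and several of the other genes lay below both. Lama4 in uterus was between endometrium and myometrium of the same mouse in 12 of 14 mice, with 22.9, 44.3 and 78.2 CPM in WT (lowest, median, highest) and 24.3, 42.4 and 69.9 CPM in KO. Uterus was below both layers of its own mouse in 11 of 14 mice for Lama5 and Lama2, in 9 for Lamb2, Lamb1 and Lamc1 and in 8 for Nid1. Lamb3 and Lama3 are not placed in this way, since a count of 0 in a layer leaves no room below it.

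Such a position was uncommon. Of 4257 genes with a mean of at least 20 CPM, the median gene had uterus below both layers in 2 of 14 mice and above both in 5, and 9.40% had it below both in at least 9 mice, a number chosen after the values were seen. Of the 6 genes described here with such a mean, 4 reached 9 mice (Lama2, Lamb2, Lamb1 and Lamc1). Since 9 is the very count of Lamb2, Lamb1 and Lamc1, the choice of this number favoured that result. The 9 genes share their libraries, so these counts are not independent of each other, and no test was made. Uterine marker sums lay between the layers in their medians for smooth muscle (7897 CPM in WT) and for epithelium (816 CPM in WT). Endothelial sums had a lower median in uterus than in either layer, with 96.0 CPM against 99.6 and 114 CPM in endometrium and myometrium of WT and 88.0 against 114 and 101 CPM in KO, with overlapping ranges. Leukocyte sums had a higher one, with 428 against 317 and 214 CPM in WT. The mesothelial markers Msln, Upk3b and Wt1 summed to a median of 108 CPM in WT uterus against 9.12 CPM in endometrium and 14.9 CPM in myometrium. The part of these other cells in the uterine levels was not tested.

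For genotype, none of the 9 genes passed the test in any tissue, and neither did any other gene. At an adjusted p under 0.05, edgeR called 0% of 12959 genes in uterus, 0% of 13004 in endometrium and 0% of 12991 in myometrium, and DESeq2 called 7, 1 and 0, none of them among the 9. Without adjustment, 731 uterine genes (5.64%), 676 endometrial genes (5.20%) and 548 myometrial genes (4.22%) had a p under 0.05. The 9 genes gave 2 of the uterine ones, Lamb2 and Nid1, and none in the other tissues.

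Lamb2 in uterus was 57.1, 47.8, 161, 105, 61.3, 288 and 47.2 CPM in WT mice 1, 3, 5, 7, 8, 10 and 12. It was 52.4, 40.2, 33.7, 48.8, 40.3, 60.2 and 82.8 CPM in KO mice 2, 4, 6, 9, 11, 13 and 14. Mice 5, 7 and 10 stood above every KO mouse, and KO mice 4, 6 and 11 below every WT mouse, with overlap in between. The log2 difference, KO minus WT, was -1.11 ± 0.37 (SE, n = 7 per genotype, adjusted p = 0.659, edgeR), and -0.63 without WT mouse 10 (adjusted p = 0.871). Within the plate blocks of the library plate it was -0.89 in rows A to C (5 WT, 3 KO mice) and -1.05 in rows D to F (2 WT, 4 KO mice), on the log2(CPM + 1) scale, with exact two-sided permutation p-values of 0.0714 and 0.533.

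Nid1 in uterus was 38.0, 148, 27.8, 89.6, 40.5, 40.0 and 37.8 CPM in the same order of WT mice. It was 27.7, 26.8, 11.7, 63.4, 19.1, 20.7 and 37.8 CPM in the KO mice. WT mice 3 and 7 were above every KO mouse and 5 KO mice were below every WT mouse. The log2 difference was -1.02 ± 0.38 (SE, adjusted p = 0.733, edgeR), and -0.63 without WT mouse 3 (adjusted p = 0.831). It was -1.41 within rows A to C (exact permutation p = 0.0357, adjusted p = 1.0 over 54 such tests) and -0.30 within rows D to F. The smallest two-sided exact p these tests allow is 0.0357 with 5 against 3 mice and 0.133 with 2 against 4, so none of them could pass after adjustment.

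WT mouse 7 stood above every KO mouse in uterus for both genes, mice 5 and 10 for Lamb2 and mouse 3 for Nid1, and the endometrium and myometrium of the same animals gave smaller differences. In endometrium the KO minus WT differences were 0.08 ± 0.28 for Lamb2 and -0.10 ± 0.38 for Nid1, and in myometrium -0.35 ± 0.24 and 0.08 ± 0.24 (SE, all adjusted p-values 0.998 or 1 in edgeR). Neither the uterine values nor those of the layers passed the test.

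**Figure D4:**
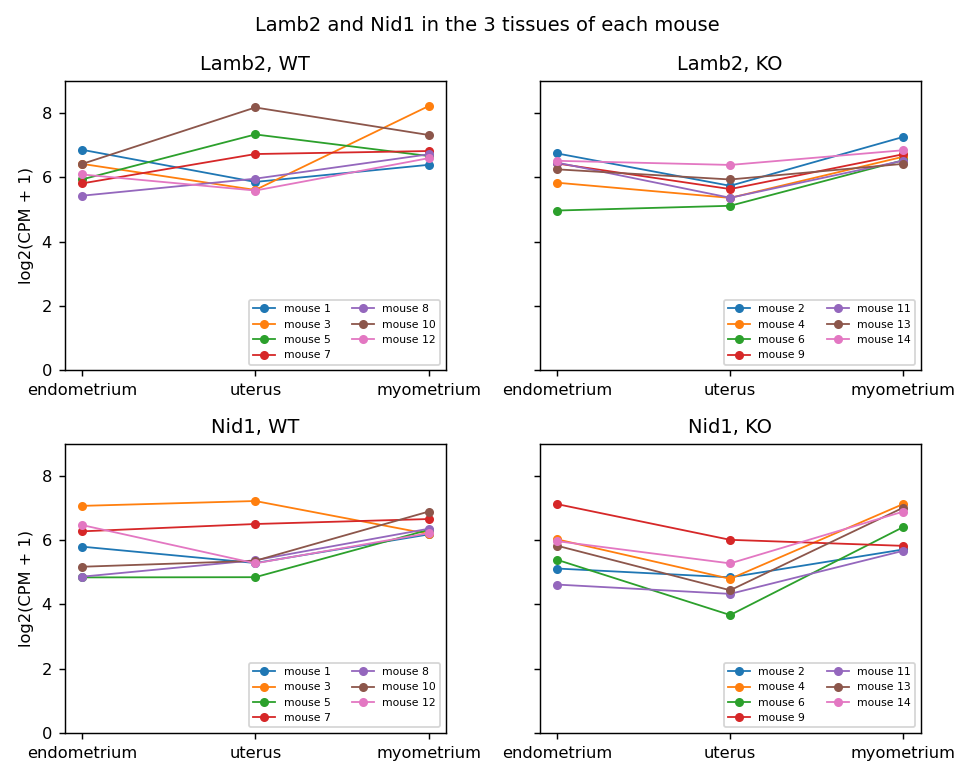
Lamb2 (top) and Nid1 (bottom) as log2(CPM + 1), vertical axis, in endometrium, uterus and myometrium, horizontal axis, of WT mice (left) and KO mice (right), with a line joining the tissues of each mouse. For Lamb2, WT mice 5, 7 and 10 peak or stay high in uterus, up to 288 CPM, while the KO uterus samples stay at 82.8 CPM or less.

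The other 7 genes had uterine KO minus WT differences from -0.49 ± 0.37 (Lama2) to 0.42 ± 0.62 (Lamb3). In endometrium the 9 genes ranged from -0.51 ± 0.40 (Lama2) to 0.40 ± 0.52 (Lamb3), and in myometrium from -0.35 ± 0.24 (Lamb2) to 1.37 ± 0.97 (Lamb3, adjusted p = 1, edgeR, on 2 and 6 counts). The SEs ran from 0.19 to 0.97 on the log2 scale. The interaction of genotype and layer was called for 0% of 14314 genes in edgeR, with 658 (4.60%) at an unadjusted p under 0.05 and 0 in DESeq2. With the mouse as a block edgeR called 10 genes, none of the 9. For the 9 genes it ran from -1.04 ± 1.04 (Lamb3, adjusted p = 0.997) to 0.46 ± 0.38 (Lamb2). Plate rows A to C held 5 WT and 3 KO mice and rows D to F 2 WT and 4 KO mice, so plate position and genotype were unevenly spread. Apart from some repeat libraries, uterus lay in rows A and D, myometrium in B and E and endometrium in C and F. Plate row and layer therefore cannot be told apart in the comparisons between layers.

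The rest of the basement membrane was described with a list of 35 genes, of which 34 were tested between layers. In WT, 4 rose in endometrium and 10 in myometrium, where 6.81% and 6.39% of the 13227 genes tested did. In KO these counts were 5 and 12, where 10.6% and 8.71% of 12969 genes did so. The median log2 differences of the list were -0.43 in WT and -0.44 in KO, beside 0.01 and 0.08 over all genes tested. In each genotype the genes higher in myometrium included Smoc2, a calcium-binding matrix protein, with the largest difference of the list (-2.75 ± 0.27 in WT and -2.90 ± 0.23 in KO, rank 1 by p-value in each), and the integrin ligand Npnt (-2.35 ± 0.46 and -2.48 ± 0.48). They also included perlecan Hspg2 (-1.78 ± 0.31 and -1.24 ± 0.36), the heparan sulfate proteoglycan of these sheets, and Col4a5 (-1.65 ± 0.37 and -2.23 ± 0.44) with Col4a6 (-1.13 ± 0.37 and -1.79 ± 0.40), whose collagen IV network is typical of smooth muscle. Col15a1, Smoc1, Sparc and the collagen and laminin receptor chains Itga1 and Itgb1 were likewise called in each genotype, between -0.96 and -2.11, and Col4a1 (-1.18 ± 0.22) and the muscle laminin receptor Itga7 (-2.43 ± 0.74) in KO. The WT differences of these last genes were -0.68 ± 0.25 (adjusted p = 0.0791, edgeR) for Col4a1 and -2.37 ± 0.81 (adjusted p = 0.0506) for Itga7.

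The genes called higher in endometrium were receptors of epithelial laminins and 2 matrix proteins. Itgb4, which binds the epithelial anchoring trimer in hemidesmosomes, differed by 1.62 ± 0.43 in WT and 1.24 ± 0.38 in KO, and its partner Itga6 by 1.02 ± 0.45 (adjusted p = 0.149, edgeR) in WT and 1.79 ± 0.57 (adjusted p = 0.0292) in KO. The Lama5 receptor Bcam differed by 1.02 ± 0.28 and 0.98 ± 0.30. Col18a1, the source of endostatin, differed by 1.02 ± 0.30 and 0.96 ± 0.25, and Fbln1 by 1.18 ± 0.39 and 1.53 ± 0.30. Itgb4 levels were 12.1, 28.7 and 82.9 CPM (lowest, median, highest) in WT endometrium and 3.56, 7.88 and 18.3 CPM in WT myometrium, so the layers overlapped. Without WT mouse 3 the list had 2 higher and 12 lower in WT, without WT mouse 5 it had 4 and 10, and without KO mouse 13 it had 4 and 12 in KO. With spike-in scaling the counts were 4 and 6 in WT and 8 and 5 in KO, where the calls over all genes also moved towards endometrium, as given above.

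**Figure D5:**
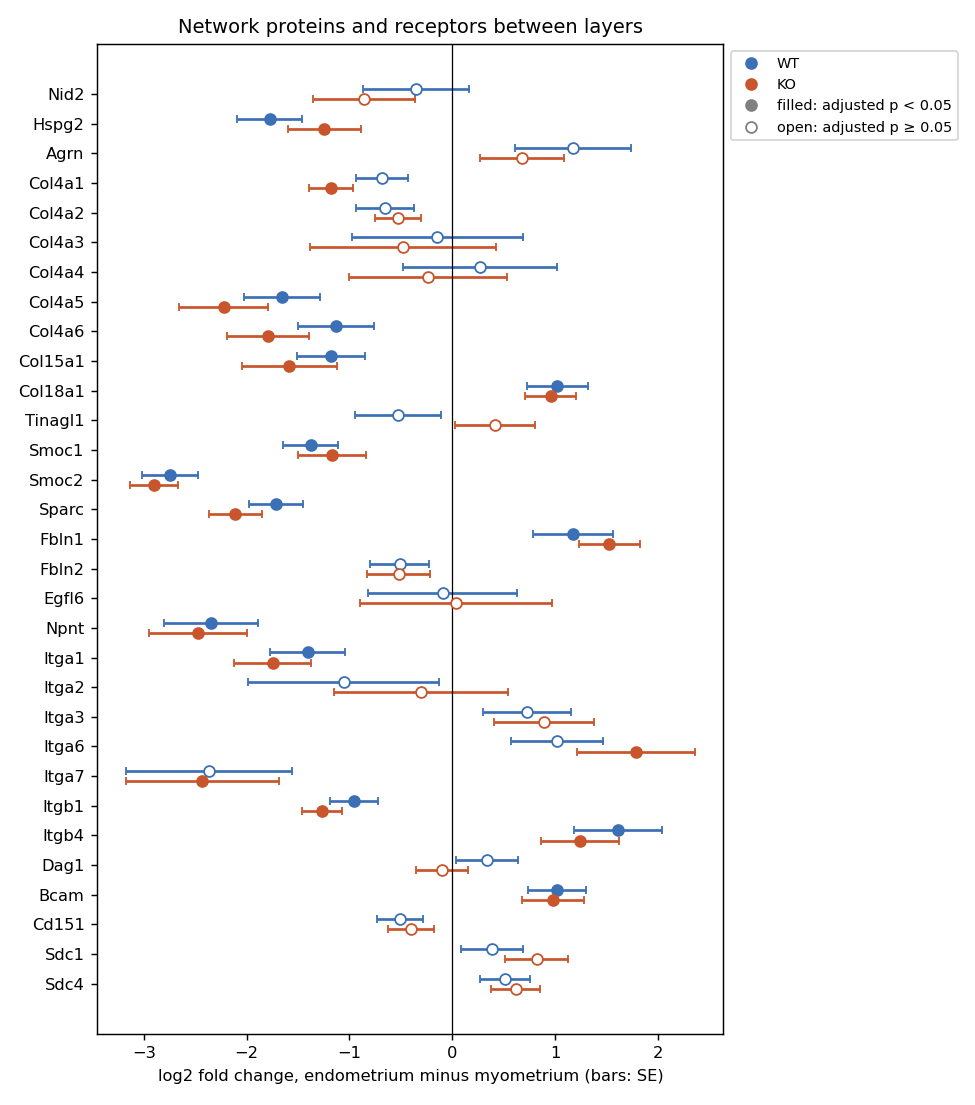
Network proteins, linkers and receptors of the basement membrane between layers: log2 fold change, endometrium minus myometrium, horizontal axis, with bars of 1 SE, in WT (blue) and KO (orange), 7 mice per layer. Filled points passed an adjusted p of 0.05. Most filled points, among them Smoc2 at -2.75 in WT, lie on the myometrium side, and Itgb4, Bcam, Col18a1 and Fbln1 on the endometrium side.

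Chains of other trimers were at the edge of detection. Lama1, typical of embryonic membranes, had at most 2 counts in any sample, all at or under the floor of 3. Lamc3 had medians of 3.60 CPM in WT endometrium and 2.04 CPM in WT myometrium, and Nid2, the second nidogen, of 4.83 and 6.33 CPM. None of these passed the test between layers, and none of the 35 genes passed it for genotype or interaction.

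Markers of other cells moved with the layers to different degrees. In WT, 4 of 4 epithelial markers were higher in endometrium, with sums of 652 to 1722 CPM against 58.1 to 605 CPM in myometrium, and 4 of 4 smooth muscle markers were higher in myometrium, with sums of 8507 to 25380 CPM against 333 to 7155 CPM in endometrium. Of the 5 fibroblast markers, 4 (Col1a1, Col1a2, Dcn and Lum) were higher in myometrium in each genotype, with WT sums of 4211 to 6088 CPM against 1150 to 2439 CPM. None of the 5 endothelial markers Pecam1, Cdh5, Kdr, Tek and Emcn passed the test, with WT sums of 42.7 to 154 CPM in endometrium and 62.8 to 133 CPM in myometrium. Of 4 leukocyte markers, 1 in WT and 2 in KO were higher in endometrium, and of 3 mesothelial markers 0 and 2 were higher in myometrium. The Schwann cell marker Sox10 was at 0 in all endometrium samples and at most at 2.12 CPM in any other sample. The part of smooth muscle, fibroblast and vessel content in the layer differences of Lama4, Lamc1 and Lamb2 was not tested, and nor was that of epithelial content in Lamb3.

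Once group means were taken out, the genes most like each of the 9 across the 42 samples differed from gene to gene. The likeness is Pearson's r of the deviations of log2(CPM + 1) from the group means, searched among 4257 genes with a mean of at least 20 CPM. It describes samples that share mice, depth and cell mixture, so no p is given. Lama4 was closest to the fibrillar collagen Col5a2 (r = 0.689) and to Postn, a matrix protein of fibroblasts (0.623). Lamb3 was closest to the gap junction gene Gjb1 (0.678) and Aoc1 (0.637), and Nid1 to the matrix genes Tnxb (0.613) and Mgp (0.597). Lama5 was closest to the mitochondrial enzyme gene Glud1 (0.678) and the semaphorin Sema3c (0.662), and Lamb2 to Ankrd11 (0.677) and Clmp (0.658). Lama2 was closest to the splicing factor Snrnp200 (0.642) and Rassf2 (0.611), and Lamc1 to neuropeptide Npy (0.64) and Ehd2 (0.639). Lama3 was closest to the DNA repair gene Xpc (0.621) and Mob2 (0.56), and Lamb1 to Ybx1 (0.585) and Tnni2 (0.579). Among the 9 themselves the closest pairs were Lamb2 with Lamc1 (0.564), Lama2 with Nid1 (0.532) and Lamc1 with Nid1 (0.506).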

How the data were processed

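The authors deposited raw counts per gene for 45 libraries, 24422 gene symbols and 92 ERCC spike-ins, with no scaling. The labels name HTSeq and build mm9; the study's methods name TopHat, UCSC gene models and Homer for these counts, and which counter made the table, the use of strand and multiply mapped reads are not given in the sources used here. Coordinates of genes are from GENCODE on NCBIM37 (mm9).

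The labels gave tissue, genotype and mouse. Repeat libraries (3 of KO mouse 13 endometrium, 2 of WT mouse 12 myometrium) were summed. Their counts differed by a chi-square per degree of freedom of 3.23 to 4.93 and 2.21, against 6.61 to 16.0 and 3.68 to 9.74 between mice. Comparisons used edgeR 4.0.16 in R 4.3.3, quasi-likelihood F test, TMM factors, a filter of 1 CPM in no fewer than 5 samples, Benjamini-Hochberg adjusted p under 0.05. Genotype was tested within each tissue, layers within each genotype, and their interaction over 4 groups. CPM used TMM factors over all 42 samples. Layers of a mouse are paired by its number: deviations of same-mouse samples had mean correlations of 0.107 (WT) and 0.145 (KO), against -0.0184 and -0.024 between mice (9083 genes). DESeq2 1.42.0, RLE factors, spike-in scaling, filters of 0 and 10 CPM, 1 library per mouse, a fit of 6 groups, plate rows, the mouse as a block and leaving out each mouse were alternatives. Scripts were tested on simulated counts.

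The 9 genes, the 35 other basement membrane genes and the markers were chosen with earlier results of these data known. All 9 genes are named, other listed genes where called between layers or at the floor, and for likeness the 2 closest genes. Some listed genes are not reported here.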

Additional observations from a re-analysis of the deposited data

Results flagged for a closer look

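In 54 sets of 7 mice (9 genes in 6 groups), the highest or lowest log2(CPM + 1) value was compared with the rest by Dixon's ratio of its gap to the whole range. In 5 sets a mouse lay beyond the 95% limit, where chance gives about 5% of sets. Lama3 in WT myometrium was highest in mouse 8 at 15.8 CPM, from 8 counts. Lama5 in KO uterus was lowest in mouse 6 at 4.40 CPM, from 3 counts, and Lamc1 in the same library was lowest at 8.79 CPM, from 6 counts. Lama4 in WT myometrium was lowest in mouse 12 at 76.0 CPM. Lamb1 in KO endometrium was highest in mouse 4 at 176 CPM. The uterine values of KO mouse 6 were not part of the comparisons between layers, so leaving out that mouse there says nothing of them. Of the other flagged genes, Lama4 kept its layer call without WT mouse 12. Lama3 and Lamb1 had no such call to end, and none was made without WT mouse 8 or KO mouse 4.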

How the results depend on the processing

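Lama4 kept its call between layers in all 15 alternatives in each genotype and Lamb3 in WT in all 14 in which it was tested (the filter of 10 CPM removed it). Lamb2 in WT lost its call in 7 alternatives, Lamc1 in 2 in WT and 1 in KO, and Lamb3 in KO in 3. The mouse as a block changed no call of the 9 genes but that of Nid1 in KO (-0.69, adjusted p = 0.0337), and for the interaction it called 10 genes instead of 0, none of the 9. In WT, 2 of the 9 genes instead of 4 were called under spike-in scaling, and 2 to 4 with a mouse left out (2 without WT mouse 7). Between layers in WT, 1746 genes were called, and 1158 (without mouse 10) to 1825 with a mouse left out. Genotype calls over all genes became 7 (uterus) and 1 (endometrium) with DESeq2, 7 in endometrium in the fit of 6 groups, 1 in myometrium with spike-in scaling and 3 without a filter, and 0 to 1 in uterus and myometrium with a mouse left out. The cause was not tested.

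Signs turned for uncalled values, all log2. Layer differences under spike-in scaling were 0.12 (Lamb1) in WT and 0.15 (Lama5), 0.066 (Lamb2) and 0.25 (Lamb1) in KO. With a mouse left out, Lama3 ran from -0.27 to 1.16 in WT and -0.12 to 0.62 in KO, and Lamb1 from -0.34 to 0.087 in WT. Genotype differences in endometrium with a mouse left out ran from -0.68 to 0.12 (Lama2), -0.022 to 0.22 (Lamb2) and -0.44 to 0.20 (Nid1), and Nid1 in myometrium from -0.060 to 0.21. Nid1 in endometrium was 0.041 under spike-in scaling. Within plate rows D to F, Lamb3 (-0.19) and Nid1 (0.064) in endometrium, Lama2 in uterus (0.58) and Nid1 in myometrium (-0.20) turned, and Lamb2 in endometrium (-0.24) in rows A to C. Of the 16 other genotype values of the 9 genes, -0.19 to 0.26, 64 of 350 values under alternatives changed sign, none with a call.

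Depth limits Lamb3 and Lama3 most, at 0 to 3 counts in many samples.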
